A study of Mus musculus with 8 samples.

Results

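The genes described here are 7 genes of sustentacular cells, the supporting cells of the olfactory epithelium, that code for neither cytochrome P450 nor conjugation enzymes: Krt8, Krt18, Ermn, Sec14l3, Hepacam2, Muc2 and Cbr2. They were chosen by symbol, and all 7 were found among the 21765 genes of the deposited table. Polysome-bound RNA of mouse main olfactory epithelium was sequenced as 8 libraries, 2 in each of 4 groups formed by genotype and gradient fraction. The wild-type (WT) mice were Mex3a flox/flox or Mex3a flox/+, with no Cre, and the conditional knockout (cKO) mice were Mex3a flox/flox with a Cre allele, whose driver is not reported here. Tissue of all groups was exposed to 100 µg/mL cycloheximide, which holds ribosomes on their mRNA, when it was dissected. Of about 42 gradient fractions of 350 µL, 50 µL of each of fractions 27 to 34 made the early (lighter) polysome pool and 50 µL of each of fractions 35 to 42 the late (heavier) pool. The early and the late library of a replicate carry the name of the same lysate, so the 8 libraries come from 4 lysates, 2 per genotype. The age and sex of the mice, and whether a lysate held 1 animal or several, are not given in the sources used here.

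Sustentacular cells span the whole height of the epithelium, wrap the dendrites and cell bodies of the olfactory neurons and carry apical microvilli into the mucus. Krt8 and Krt18 code for the type II and type I keratins that pair into the filaments of simple epithelia. Ermn codes for ermin, a cytoskeletal protein with an actin-binding end like that of the ezrin family, and Sec14l3 for a lipid-binding protein of the SEC14 family. Hepacam2 codes for an immunoglobulin-domain membrane protein, Muc2 for a secreted gel-forming mucin best known from the intestine, and Cbr2 for a carbonyl reductase that uses NADPH. Other cells share some of these genes: both keratins occur in gland and other simple epithelial cells, Muc2 in goblet cells, and Hepacam2 in tuft cells of other epithelia. On a gradient, an mRNA that carries more ribosomes moves further down, and the number it can carry is limited by the length of its coding sequence.

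The inferred depth was 7776792 to 12771079 reads per library, and replicates correlated across genes at 0.978 to 0.985 on the log2 scale. The deleted gene was checked first. Mex3a, which codes for an RNA-binding protein, was at 93.2 to 115.6 transcripts per 1000000 (TPM) in the 4 WT libraries and at 11.1 to 19.8 TPM in the 4 cKO libraries. WT early replicate 2 carries the cKO genotype in 1 of its labels against its title. It had the highest Mex3a level of all libraries, 115.6 TPM, and was kept as WT.

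The start codon is where translation begins. The regions around it are shown because the number of ribosomes on each mRNA is what separates the fractions. Each line gives 6 bases before the start codon and 24 from it, 5′ to 3′ on the coding strand, from GENCODE M21 on GRCm38 (mm10), with the start codon in capitals.
Krt8: ttcaccATGtccatcagggtgactcagaaa
Krt18: gacaagATGagcttcacaactcgctccacc
Ermn: aacatcATGacagatactcctgagacactg
Sec14l3: agcaccATGagtggccgagttggagacctg
Cbr2: agcagcATGaagctgaatttcagtggcctg
Hepacam2: gcatgcATGggacaggatgcttttatggag
A purine at position -3 and a G at position +4, counted with the A of the start codon as +1, are the bases known to favour initiation. Krt8, Krt18, Ermn, Sec14l3 and Cbr2 have A at -3, and Hepacam2 has T there. A purine at -3 was thus present in 5 of 6, beside 86.1% of the 13830 tested genes with such a window. Hepacam2 alone of the 6 has G at +4, where 52.5% of genes do, so that 0 of 6 had both bases, beside 45.0% of genes. GENCODE marks the Muc2 locus as fragmented, and no window was taken for it.

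Krt8 lies at chr15:101996698-102004482 on the minus strand and Krt18 at chr15:102028180-102032027 on the plus strand, 23697 bases apart, so that the genes of the keratin pair are neighbours. Ermn lies at chr2:58045113-58052864 on the minus strand, Sec14l3 at chr11:4064841-4077736 on the plus strand and Hepacam2 at chr6:3457096-3498298 on the minus strand. Muc2 lies at chr7:141690340-141754693 on the plus strand and Cbr2 at chr11:120729489-120732114 on the minus strand. Exons of Ermn overlap exons of Galnt5, a glycosyltransferase gene on the opposite strand, which was at 15.6 to 22.6 TPM. Exons of Krt8 overlap exons of Gm36026, a long noncoding RNA gene on the opposite strand that was not found in the deposited table. The kit keeps the strand, but whether the counting used it is not given in the sources used here.

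The 7 genes covered a wide range of polysome-bound levels. Per length, as TPM, Cbr2 was highest, with a mean of 3734 over the 8 libraries and a rank between 10 and 17 of all genes in every library. Sec14l3 followed with a mean of 1533 TPM, and its rank ran from 212 in an early to 19 in a late library. Krt18 averaged 476.5 TPM and Krt8 215.7 TPM, and the order Cbr2, Sec14l3, Krt18, Krt8 held in every library. Muc2 at 97.5 TPM and Ermn at 93.0 TPM did not differ beyond their spread over libraries, 46.9 to 137.4 TPM for Muc2 and 51.1 to 131.2 TPM for Ermn. Hepacam2 was far below the others, at a mean of 11.3 TPM, on 73 to 140 inferred reads per library. Each library gave at least 744 reads for every other gene of the group, with the highest number, 41980, for Sec14l3.

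**Figure D1:**
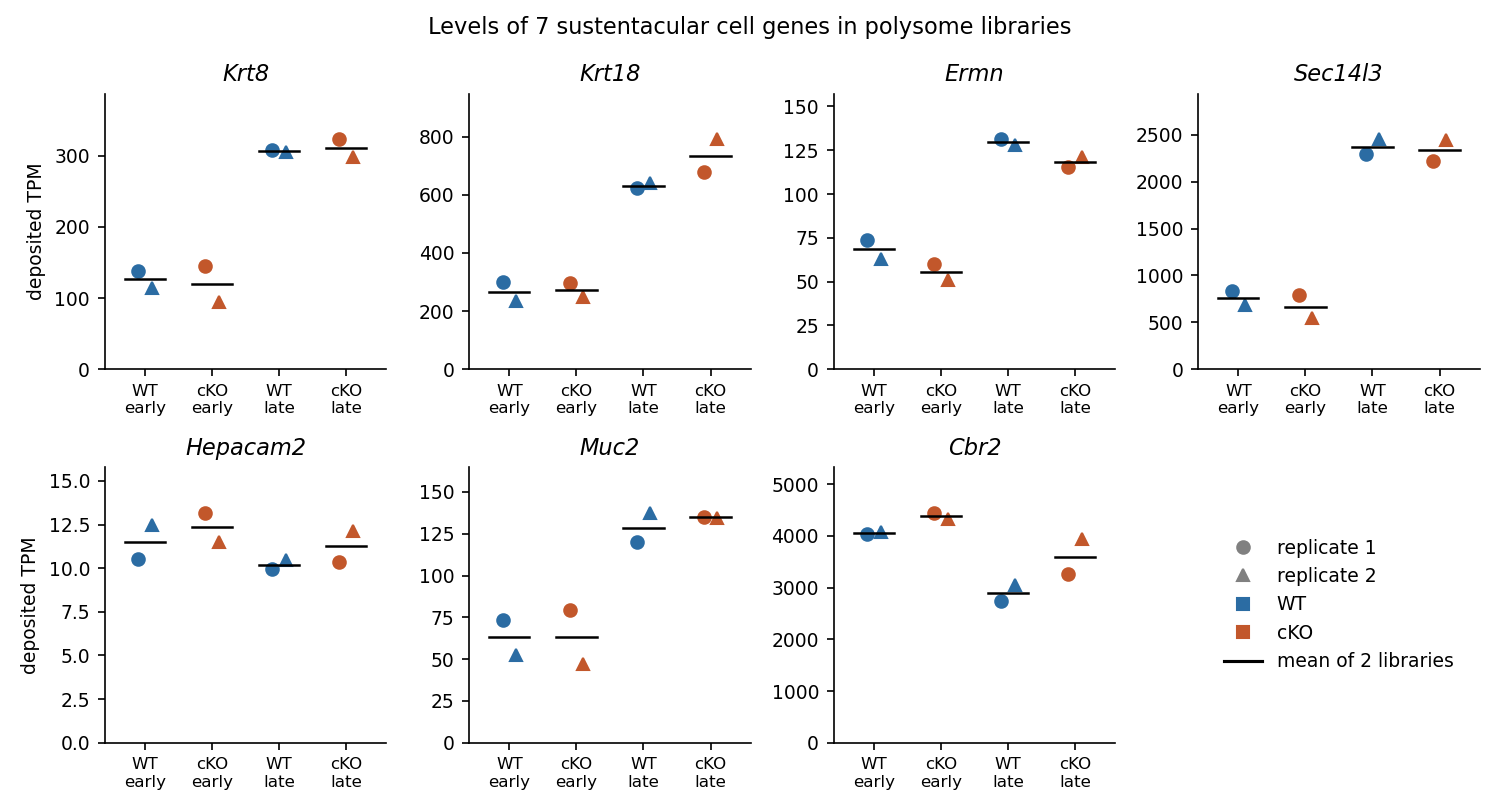
Deposited TPM of the 7 genes (y axis, starting at 0, own scale per gene) in WT and cKO early and late polysome libraries (x axis), with 1 point per library and a line at the mean of 2 libraries. For Krt8, Krt18, Ermn, Sec14l3 and Muc2 the 4 late libraries lie above the 4 early ones, for Cbr2 below them, and for Hepacam2 the fractions overlap.

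The comparison of late with early polysomes asks which mRNAs sit with more ribosomes. Sec14l3, Krt8, Krt18, Muc2 and Ermn were higher in late than in early polysomes, by 1.84 to 3.07 times on average over the genotypes. Cbr2, the most abundant of the 7, was lower in late polysomes, at 0.704 times its early level, and Hepacam2 did not pass the test. By limma with Benjamini-Hochberg adjustment at 0.05, 5 of 7 genes were thus called higher, beside 34.3% of the 16097 genes tested, and 1 of 7 lower, beside 34.6%. The median log2 change of the 7 genes was 0.96, against -0.01 over all genes tested. Every late library was above every early one for 5 genes and below every early one for 1. The share of all genes separated in this way was not counted, and 11094 of the 16097 genes tested were called in either direction. TPM is a share of the RNA in a pool, so these are changes in a gene's share of late against early polysome RNA.

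The counts were the same or nearly so within each genotype. In WT, 5 of 7 genes were called higher (27.1% of all genes) and 1 lower (27.7%). In cKO, 5 were called higher (28.9%) and 0 lower (29.2%). There 6 of the 7 had an unadjusted limma p under 0.05, beside 10146 of the 16097 genes tested. Over the 4 lysates, the late-minus-early difference was above 0 in 4 of 4 for the 5 genes called higher. It was below 0 in 4 of 4 for Cbr2 and for Hepacam2, which was not called. The share of all genes with the same sign in 4 of 4 lysates was not counted.

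**Figure D2:**
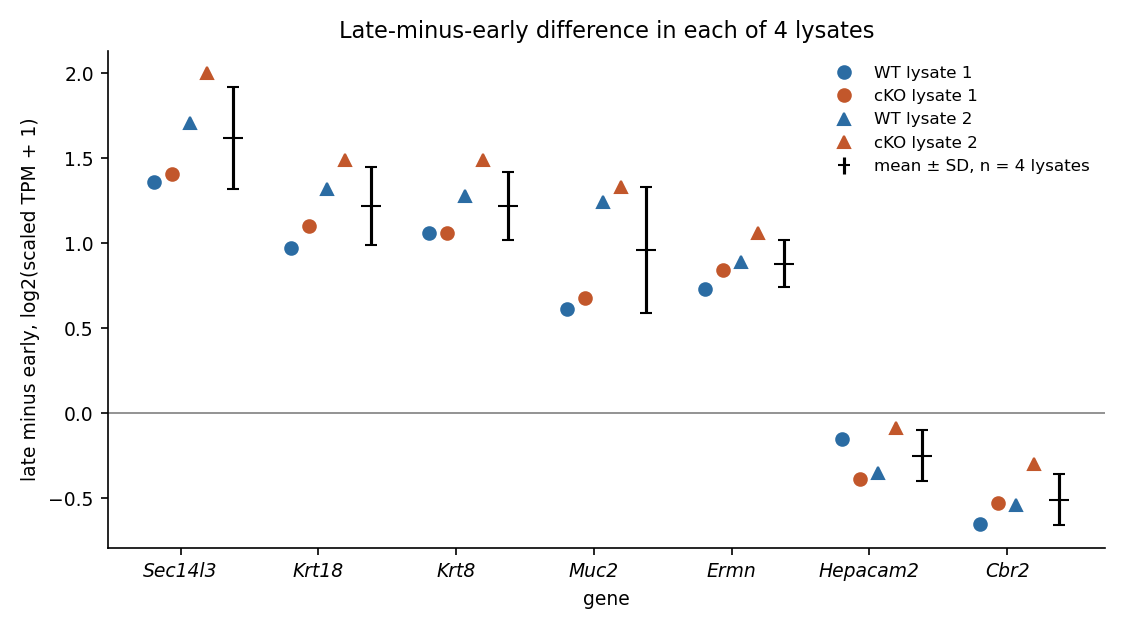
Late minus early difference in log2(scaled TPM + 1) (y axis) for each gene (x axis) in each of the 4 lysates, with the mean and SD over lysates. Sec14l3 is highest at a mean of 1.62 and Cbr2 lowest at -0.51, and the replicate 2 lysates lie above the replicate 1 lysate of their genotype for the 5 genes called higher.

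The keratin partners moved alike. In the WT lysates 1 and 2, Krt8 was 138.4 and 114.2 TPM early against 308.3 and 304.7 TPM late, and in the cKO lysates 1 and 2 145.5 and 93.9 TPM early against 322.9 and 297.7 TPM late. In the WT lysates, Krt18 was 300.3 and 234.0 TPM early against 624.6 and 638.8 TPM late, and in the cKO lysates 297.7 and 249.0 TPM early against 677.6 and 790.1 TPM late. For both, the lowest late library was well above the highest early one. The log2 change was 1.22 for Krt8 (SE 0.13, adjusted p = 7.14e-05) and 1.22 for Krt18 (SE 0.10, adjusted p = 2.75e-05), a little over a doubling for each.

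Genes of proteins that tie keratin filaments to desmosomes were also mostly higher in late polysomes. Of 10 such genes tested, 8 were called higher and 0 lower, with a median log2 change of 0.69. Over all genes the shares were 34.3% higher and 34.6% lower, which also stand beside the list counts below. Coding lengths ran from 2235 nucleotides in Jup to 14058 in Plec. In the bins of all genes that cover these lengths, the median changes were 0.37, 0.45 and 0.50. Jup, which codes for the desmosomal plaque protein plakoglobin, changed by 1.18 (SE 0.07), and Ppl, which codes for periplakin, by 1.08 (SE 0.16). Dsp, the gene of desmoplakin, changed by 0.40 (SE 0.10). Plec at 0.24 (adjusted p = 0.0657) and Eppk1 at -0.23 (adjusted p = 0.216), genes of large cytoskeletal linkers, did not pass.

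Other epithelial keratins did not all follow Krt8 and Krt18. Of 16 listed, 15 were in the table and 11 had enough signal to be tested. Of these, 5 were called higher in late polysomes, namely Krt19 (1.47, SE 0.11), Krt17 (1.41, SE 0.17), Krt15 (1.15, SE 0.19), Krt7 (0.98, SE 0.15) and Krt5 (0.98, SE 0.16) on the log2 scale. Krt5 is a keratin of basal cells and Krt7 and Krt19 are keratins of simple epithelia. Krt10, a keratin of skin, was the 1 called lower, at -1.51 (SE 0.28) and a mean of 4.73 TPM, under the level set for naming, and it is named because its values were seen. The median of the 11 was 0.24.

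The ratio between the keratin partners varied little, except in 1 lysate. In 6 of 8 libraries Krt18 was 2.03 to 2.17 times Krt8 in TPM, whatever the fraction or genotype. In WT early replicate 1 the ratio was 2.17 (95% interval 2.02 to 2.33) and in WT late replicate 1 it was 2.03 (1.92 to 2.13). The cKO lysate 2 stood apart in both of its libraries, at 2.65 (2.43 to 2.90) early and 2.65 (2.49 to 2.83) late. These exact binomial intervals use the inferred reads and cover counting error only. The other cKO lysate was at 2.05 early and 2.10 late, so the higher ratio belonged to 1 lysate and not to both cKO lysates. It was not tested.

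**Figure D3:**
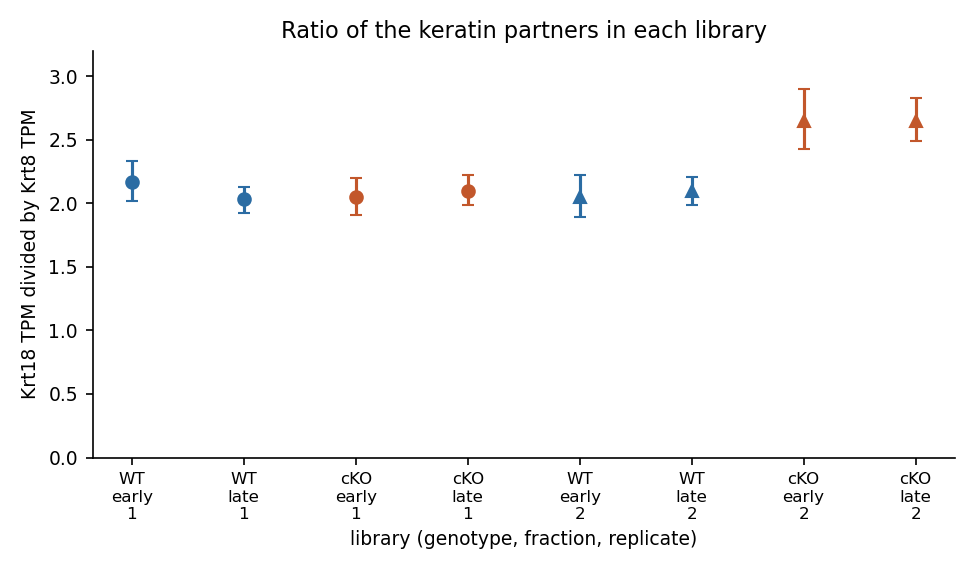
Krt18 TPM divided by Krt8 TPM (y axis, starting at 0) in each of the 8 libraries (x axis, circles for replicate 1 and triangles for replicate 2), with exact binomial 95% intervals from inferred reads. Both libraries of cKO lysate 2 lie at 2.65, above the 2.03 to 2.17 of the other 6.

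Ermn in the WT lysates was at 74.0 and 63.0 TPM early against 131.2 and 128.0 TPM late, and in the cKO lysates 60.3 and 51.1 TPM early against 115.5 and 121.1 TPM late. The fractions did not overlap, and the late libraries were the more alike. The log2 change was 0.88 (SE 0.08, adjusted p = 3.29e-05). Among 7 tested genes that link the apical membrane to actin, 3 were called higher and 1 lower, with a median of 0.36. The higher ones were the 3 ezrin-family genes, Ezr at 1.15 (SE 0.12), Msn at 0.70 (SE 0.09) and Rdx at 0.60 (SE 0.08). Nf2, the gene of the related tumour suppressor merlin, was lower by limma at -0.63 (SE 0.08, adjusted p = 0.000194). Slc9a3r1, the gene of a scaffold bound by ezrin, was at 0.19 (adjusted p = 0.0654) and did not pass. Of 13 epithelial junction genes, 8 were called higher and 2 lower. The E-cadherin gene Cdh1 was at 1.16 (SE 0.15), while the claudin genes Cldn10, at -0.79 (SE 0.11), and Cldn7, at -0.70 (SE 0.07), were the lower ones.

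Sec14l3 had the largest change of the 7 genes. In the WT lysates, its level was 837.6 and 685.1 TPM early against 2292 and 2449 TPM late, and in the cKO lysates 791.0 and 542.3 TPM early against 2223 and 2443 TPM late. The lowest late value was more than double the highest early one, and the lowest of all came from cKO early replicate 2. The log2 change was 1.62 (SE 0.13, adjusted p = 2.73e-05), 3.07-fold. The 8 tested genes of other SEC14-like proteins and their lipid-binding relatives all passed the test, but 5 were higher and 3 lower, with a median of 0.43. Sec14l2, also called supernatant protein factor, was at 1.05 (SE 0.08) and Sec14l5 at 0.83 (SE 0.08). Sec14l1 at 0.44 (SE 0.07), Sec14l4 at 0.41 (SE 0.11) and Rlbp1, the retinaldehyde-binding protein gene, at 0.68 (SE 0.13) were also higher. The lower genes were Ttpal at -0.54 (SE 0.08), Clvs1 at -0.58 (SE 0.15) and the tocopherol transfer protein gene Ttpa at -0.56 (SE 0.21).

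Muc2 in the WT lysates was at 73.7 and 52.8 TPM early against 120.0 and 137.4 TPM late, and in the cKO lysates 79.4 and 46.9 TPM early against 135.1 and 134.5 TPM late. The fractions did not overlap, and in both genotypes the early replicates differed by more than the late ones in proportion. The log2 change was 0.96 (SE 0.16, adjusted p = 0.000788), with the widest SD over lysates of the 7 genes, 0.37. In WT alone it was 0.92 (SE 0.23, adjusted p = 0.00925), and this call was lost without WT early replicate 2 (0.69, adjusted p = 0.0785) or WT late replicate 2 (0.83, adjusted p = 0.0613). Of 7 other mucin genes tested, 4 were called higher and 0 lower, with a median of 0.59. These were the membrane mucin Muc1 at 0.78 (SE 0.09), the secreted gel-forming Muc5b at 0.78 (SE 0.29), Muc15 at 0.59 (SE 0.16) and Muc20 at 0.46 (SE 0.15). Muc5ac, another gel-forming mucin, was at 0.62 (adjusted p = 0.0551) and did not pass.

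Cbr2 went the other way. In the WT lysates, its level was 4035 and 4083 TPM early against 2739 and 3059 TPM late, and in the cKO lysates 4443 and 4321 TPM early against 3256 and 3941 TPM late. Every late library was below every early one, with the smallest gap between cKO late replicate 2 and the WT early libraries. The log2 change was -0.51 (SE 0.13, adjusted p = 0.00709). It was called in WT at -0.59 (SE 0.18, adjusted p = 0.0223) but not in cKO at -0.42 (SE 0.18, adjusted p = 0.077), and the difference between the genotypes was 0.18 (SE 0.25, adjusted p = 1). With quantile normalization the change was -0.15 (adjusted p = 0.394), and with no filter on low values it kept its size at an adjusted p of 0.0574. In WT alone the call was lost without any 1 of the 4 WT libraries, at -0.67 to -0.52.

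Related reductase genes were mixed. Of 12 other carbonyl reductase and short-chain dehydrogenase genes tested, 6 were called higher, beside 34.3% of all genes, 1 lower and 5 not called, with a median of 0.32. Cbr1 and Cbr3, genes of the cytosolic carbonyl reductases, were at 1.19 (SE 0.07) and 0.77 (SE 0.10). Rdh11, a retinol dehydrogenase gene, was at 1.02 (SE 0.11), Dhrs3 at 0.45 (SE 0.06) and Dhrs4 at 0.41 (SE 0.10). The 1 called lower was Dcxr, at -0.73 (SE 0.09), which codes for dicarbonyl and L-xylulose reductase. Its coding sequence of 732 nucleotides is as long as that of Cbr2, and those of Cbr1 and Cbr3, which were higher, have 831. The part of length in these changes was not tested. Of 10 detoxification enzyme genes of the same cells, 9 were called higher and 0 lower, with a median of 1.07, from Cyp2g1 at 1.66 (SE 0.12) to Ugt2a2 at 0.43 (adjusted p = 0.075), which did not pass.

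Hepacam2 in the WT lysates was at 10.5 and 12.5 TPM early against 9.94 and 10.5 TPM late, and in the cKO lysates 13.2 and 11.5 TPM early against 10.4 and 12.1 TPM late. Early and late values overlapped. The log2 change was -0.25 (SE 0.10, adjusted p = 0.058), and its 95% interval ran from -0.48 to -0.01, which overlaps the interval of -0.80 to -0.21 for Cbr2. Hepacam2 passed without WT early replicate 1 (-0.31, adjusted p = 0.0417) and with no mean-variance trend (adjusted p = 0.0465). Of 5 related adhesion genes, Cadm4 at -0.82 (SE 0.09) and Cadm3 at -0.57 (SE 0.07) were called lower and Cadm1 at 0.48 (SE 0.07) higher, with a median of -0.29. Hepacam itself was at -0.29 (SE 0.13, adjusted p = 0.0865).

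The size of the late-minus-early difference varied between lysates in 1 pattern for the 5 genes called higher. For Sec14l3 it was 1.36 in WT lysate 1 and 1.41 in cKO lysate 1, against 1.71 in WT lysate 2 and 2.00 in cKO lysate 2. For Muc2 the values were 0.61 and 0.68 against 1.24 and 1.33. Krt8 (1.06 and 1.06 against 1.28 and 1.49), Krt18 (0.97 and 1.10 against 1.32 and 1.49) and Ermn (0.73 and 0.84 against 0.89 and 1.06) had the same order. The spread of all 16097 genes moved with it: their interquartile range was 0.90 and 0.97 in the replicate 1 lysates and 1.18 and 1.29 in the replicate 2 lysates. The part of that spread in the genes' values was not tested. For Cbr2 the differences were -0.65 and -0.53 in the replicate 1 and -0.54 and -0.30 in the replicate 2 lysates (WT and cKO). In each genotype the decrease of Cbr2 was thus smaller in lysate 2. Hepacam2 had no common order, with -0.15 and -0.39 in the replicate 1 and -0.35 and -0.09 in the replicate 2 lysates (WT and cKO).

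Over all genes, the late-minus-early change followed coding length, from a median of -1.12 in the shortest of 10 bins of genes to 0.50 in the longest. The members with a coding length were therefore set against genes of like length. Sec14l3, with 1203 coding nucleotides, was above 99.9% of the 1466 genes in its bin, whose median was -0.02. Krt18, with 1269 nucleotides, was above 98.7% of the same bin. Krt8, with 1470 nucleotides, was above 98.0% of a bin with a median of 0.21, and Ermn, with only 843, above 97.1% of a bin with a median of -0.26. Cbr2, the shortest at 732 nucleotides, was above 60.8% of its bin, whose median was -0.63, so its change lay within the quartiles of genes of its length. Hepacam2, with 1389 nucleotides, was above only 24.3% of its bin, whose median was 0.21. Thus 5 of 6 lay above the median of their bin and 4 above its upper quartile. Ranked by longest transcript instead, 5 of 6 were again above the median, with Ermn above 89.2%.

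**Figure D4:**
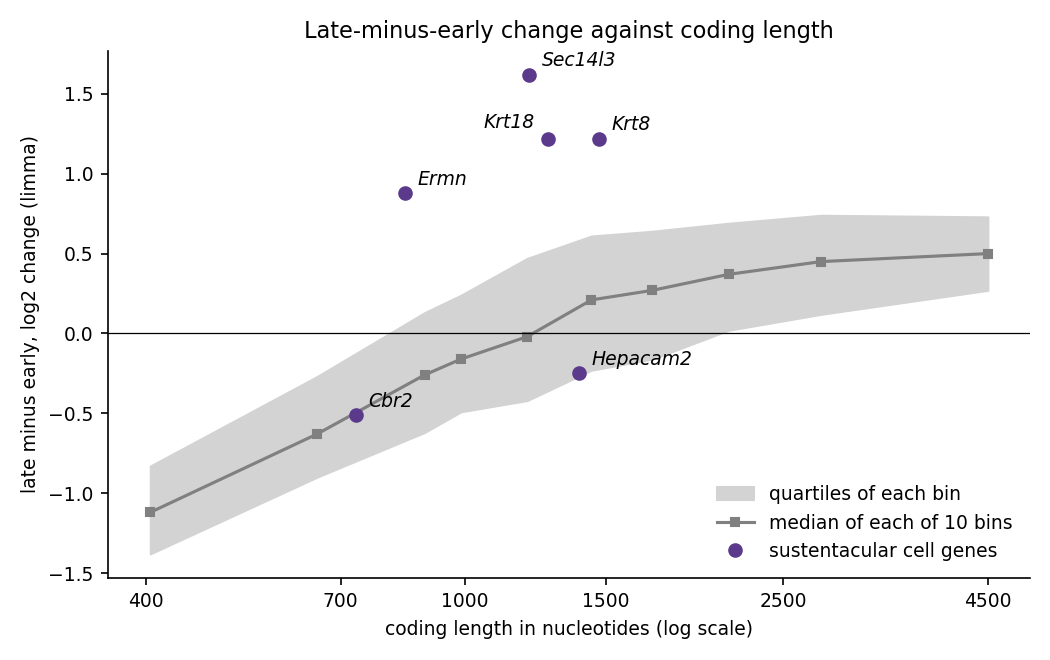
Late minus early log2 change by limma (y axis) against coding length in nucleotides (x axis, log scale), with the median and quartiles of 10 bins of genes and the 6 genes with a coding length. Sec14l3, Krt18, Krt8 and Ermn lie above the quartile band, Cbr2 inside it near its bin's median of -0.63, and Hepacam2 at its lower edge.

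The annotated 5′ leaders of these mRNAs also differed. Krt8, Krt18, Ermn and Sec14l3 have no ATG in theirs, while Cbr2 has 1 and Hepacam2 has 2. That is 4 of 6 without one, beside 48.8% of genes. Over all genes the median late-minus-early change was 0.12 for the 6753 genes with no leader ATG, 0.01 for the 3154 with 1 and -0.03 for the 3923 with 2 or more. In the same order, 41.3%, 36.1% and 32.4% of these genes were called higher in late polysomes and 32.8%, 35.4% and 35.0% lower. Whether leader ATGs bear on the changes of the members was not tested. The leader lengths ran from 99 nucleotides in Krt18 to 243 in Krt8, with Cbr2 at 142 and Hepacam2 at 119.

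The genotype comparison asks whether loss of Mex3a changes these mRNAs on polysomes. None of the 7 genes was called between cKO and WT in early polysomes (0.0435% of all genes called), in late polysomes (0.0124%), on the mean of early and late values of each lysate (0.00621%) or in the interaction of genotype and fraction (0.00621%), by limma. In each of these 4 comparisons 0 of 7 had an unadjusted limma p under 0.05. Over the 16097 genes tested, 1071, 1506, 1823 and 459 had one, in the same order. In whole tissue, fewer cells of a type and less RNA per cell cannot be told apart.

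On lysate means the log2 differences ran from -0.17 for Ermn (SE 0.08, 95% interval -0.36 to 0.03) to 0.26 for Cbr2 (SE 0.12, 95% interval -0.05 to 0.56). Krt8 was at 0.00 (-0.33 to 0.33), Krt18 at 0.17 (-0.03 to 0.38), Sec14l3 at -0.07 (-0.34 to 0.20), Hepacam2 at 0.15 (-0.10 to 0.41) and Muc2 at 0.07 (-0.27 to 0.40). With 2 lysates per genotype these intervals leave room for moderate differences, and a missed threshold does not show equal levels. After scaling, late Cbr2 was at 2721 ± 186.7 TPM for WT and 3464 ± 376.5 TPM for cKO (SD, n = 2 each), a log2 difference of 0.35 (SE 0.18, limma adjusted p = 0.593). On scaled values both cKO late libraries were above both WT late ones for Cbr2, Krt18 and Hepacam2, and below both for Ermn. The share of all genes separated in this way was not counted. In early libraries Ermn was at 69.2 ± 7.20 TPM for WT and 58.5 ± 5.94 TPM for cKO (SD, n = 2 each), with a log2 difference of -0.24 (SE 0.11, limma adjusted p = 0.761).

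The change between fractions did not differ between genotypes beyond its error for any of the 7 genes. The interaction ran from 0.01 for Hepacam2 to 0.18 for Cbr2, with 95% intervals between -0.66 and 0.82 over the 7 genes. For Sec14l3 the late-minus-early change was 1.54 (SE 0.19) in WT and 1.70 (SE 0.19) in cKO, and the interaction was 0.17 (SE 0.27, limma adjusted p = 1). For Krt18 it was 1.14 (SE 0.14) and 1.30 (SE 0.14), with an interaction of 0.15 (SE 0.20, limma adjusted p = 1). No gene of the related lists was called between genotypes on lysate means either.

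**Figure D5:**
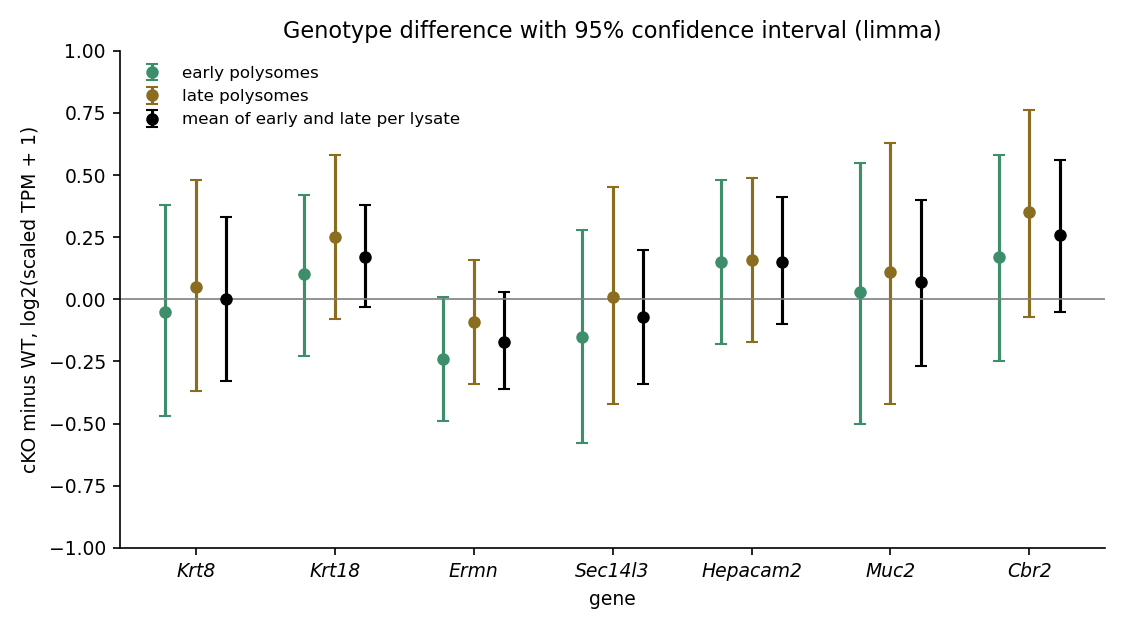
cKO minus WT difference in log2(scaled TPM + 1) (y axis) for the 7 genes (x axis) in early polysomes, late polysomes and the mean of both per lysate, with 95% confidence intervals from limma. The largest difference is that of Cbr2 in late polysomes, 0.35, and its interval of -0.07 to 0.76 includes 0.

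Markers of sustentacular cells and of other cells were present in the same libraries. Among other sustentacular genes, the Notch receptor gene Notch3 was higher in late polysomes by limma, at a log2 change of 1.14 (SE 0.17), Notch2 at 0.65 (SE 0.14) and Hes1, a Notch target, at 0.53 (SE 0.08). The transcription factor genes Pax6 and Sox2 were at 0.43 (SE 0.07) and 0.23 (SE 0.07) and also passed, and the protease gene Tmprss2, at 0.26 (adjusted p = 0.0746), did not. Goblet cell markers, which bear on Muc2, summed in WT libraries to 436.5 to 510.4 TPM early and 487.9 to 489.9 TPM late, and in cKO libraries to 439.7 to 545.1 TPM early and 467.5 to 507.7 TPM late. The goblet list was led by Agr2, at a mean of 384.6 TPM, and of its 5 tested genes 1 was called higher and 1 lower in late polysomes. Microvillous and tuft cell markers, which bear on Hepacam2, summed in WT libraries to 66.9 to 78.0 TPM early and 96.7 to 103.0 TPM late, and in cKO libraries to 82.1 to 85.0 TPM early and 119.2 to 134.3 TPM late. Of 6 tested, 3 were higher in late polysomes, Foxi1 at 1.00 (SE 0.10), Trpm5 at 0.70 (SE 0.16) and Cftr at 0.62 (SE 0.17). The 1 called lower was the tuft cell factor gene Pou2f3, at -0.60 (SE 0.12). Trpm5 averaged 2.31 TPM and Chat and Il25 were under 1 TPM. Bowman gland markers, which bear on the keratins, summed in WT libraries to 374.7 to 495.4 TPM early and 774.3 to 813.4 TPM late, and in cKO libraries to 378.4 to 561.1 TPM early and 938.1 to 1085 TPM late, with 4 of 4 called higher in late polysomes. The secretory marker Scgb1a1 did not exceed 0.881 TPM, while Bpifa1 averaged 5552 TPM. No marker of these lists was at 0 in all libraries. How much of each gene's RNA came from these other cells was not tested.

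For each of the 7 genes the most alike profiles over the 8 libraries were sought among 12817 genes, as Pearson's r of log2(scaled TPM + 1). The early and late libraries lie apart and share lysates, so high values are common and are given as a description. They were Prps2 (r = 0.999) for Krt8, Dnmbp (0.999) for Krt18, Cdc42bpb (0.998) for Ermn, Trim56 (0.999) for Sec14l3 and Epas1 (0.996) for Muc2. Kcnk1 (0.997) was most like Cbr2. Hepacam2 had the least close match, Gadd45g (0.973).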

How the data were processed

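The authors deposited 1 table of TPM per gene and library, each column summing to 1000000, and the submitters' processing notes name FastQC, cutadapt, STAR, DESeq2 and the build mm10. Whole reads were inferred from the steps between TPM values of the 19783 genes above 0 in at least 2 libraries (100% whole within 0.01 reads) and give the depth. Libraries were scaled by median ratios, with factors of 0.94 to 1.07. The values log2(scaled TPM + 1) of the 16097 genes with a mean TPM of at least 1 were fitted with limma 3.58.1 (R 4.3.3), all 4 groups together, with a mean-variance trend. All fold changes are taken on that log2 scale, where the pseudocount shrinks those of low genes. Genotype was also tested on lysate means. P-values are two-sided and adjusted over all genes tested. They measure the spread between these samples, which may in part be technical, since the labels do not say that lysates came from separate animals.

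The members, 23 lists of other genes and tests were chosen with earlier results of these data known. Named were the members, Mex3a, genes of lists of up to 10 genes, and of longer lists up to 5 called genes per direction with a mean TPM of at least 5. Some listed genes are not reported here. The most alike genes were sought among those with a mean TPM of at least 5.

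Library names pair the early and late library of a lysate. Their deviations from group means had a correlation over genes of 0.0863 for WT and 0.0502 for cKO. Coding lengths, leaders and positions came from GENCODE M21, which held 96.4% of the tested symbols. They replaced the planned protein lengths. Binomial intervals and read numbers cover counting error only. The code was tested on simulated data. Figures were drawn with matplotlib 3.10.9.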

Additional observations from a re-analysis of the deposited data

How the results depend on the processing

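The count of members called higher in late polysomes was 5 in each alternative for the mean of genotypes. The count called lower on the mean of genotypes, 1, became 0 when low genes were kept, 0 with quantile normalization and 2 with no mean-variance trend, and ran from 1 to 2 when each library was left out. In WT that count, 1, became 0 with no filter, 0 with quantile normalization and 0 with only the 4 libraries compared, and ran from 0 to 1 with libraries left out. In cKO, 0 became 1 with no trend and 1 by voom on inferred reads. The cause of these moves was not tested. With a replicate block (lysate for late against early, replicate number for genotype) the members called on the mean of genotypes were again 5 higher and 1 lower, and no call of a member changed. WT and cKO lysates of 1 number share only that number, as no label says that it marks a batch; the deviations of same-numbered libraries correlated at 0.332 in early and 0.143 in late polysomes.

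Counts over all genes moved more. In WT late against early, 8826 calls became 5855 without WT early replicate 2. Between genotypes, calls ranged from 0 to 12 in early polysomes (7 in the test reported), from 0 to 15 in late polysomes (2), from 0 to 85 on lysate means (1) and from 0 to 6 in the interaction (1). The 85 came with the replicate block and the 15 by voom. No member passed between genotypes in any alternative. With 2 libraries per group, where 1 is left out the lone sample is assumed to vary like the other groups. Depth limits Hepacam2 most, with 73 to 140 reads per library.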
